A study of Mus musculus with 22 samples.

Results

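The glucocorticoid genes described here are Hsd11b1, Nr3c1, Fkbp5, Tsc22d3, Per1, Sgk1 and Zbtb16, 7 of the 34378 gene names in the series' table of expression values. They were taken by name and chosen by the measured rise of Hsd11b1 between day 0 and culture. The change from day 0 is therefore given as a description, with no test, for these 7 genes. The tests concern the difference between cultures given reprogramming factors and cultures given a control vector. The stated rule of choice did not use that difference. Earlier results of these data were known when the genes were chosen, so the p-values are not free of that choice. RNA from cultures of mouse cardiac fibroblasts (CF) was hybridised to Agilent 1-colour arrays of the 8x60K mouse format, with 22 arrays in 11 groups of 2. The mice were of the CD1 strain with the aMHC-GFP genotype, a fluorescent reporter under a cardiac myosin promoter, and every group, the controls included, carried it. The day 0 group was CF without a vector named in its labels. The MGT groups were CF infected with retroviruses that express Mef2c, Gata4 and Tbx5 as a polycistronic transgene, which turns fibroblasts into induced cardiomyocytes, and the lacZ groups carried the control gene lacZ, each collected at days 3, 5, 7, 10 and 14. Below, cultured refers to the groups of days 3 to 14, all of which carried a vector. Time and vector therefore cannot be told apart in any comparison with day 0. The sources used here do not give the age of the animals, the medium or any hormone in it. Nor do the sources say whether the 2 arrays of a group come from separate cultures, so p-values measure the spread between these arrays, which may be technical.

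Glucocorticoids act through a receptor that is held in the cytoplasm by a chaperone complex until hormone binds, and then enters the nucleus and binds DNA at short palindromes called glucocorticoid response elements. How much active hormone a cell sees depends in part on its own enzymes: Hsd11b1 encodes the reductase of the endoplasmic reticulum that turns inactive keto-steroids into corticosterone or cortisol, Hsd11b2 the opposing dehydrogenase, and H6pd the enzyme that supplies the reductase with NADPH. Nr3c1 encodes the receptor. Fkbp5, Tsc22d3, Per1, Sgk1 and Zbtb16 are genes that the hormone induces in many tissues, and in fibroblasts glucocorticoids are best known for lowering inflammatory cytokines and matrix proteases.

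The DNA just before the start sites of 4 of these genes is shown because the receptor and the clock factors act on such sequence. The 250 bases upstream of the annotated start are printed 5′ to 3′ on the gene's strand, from RefSeq on GRCm38.p6, and capitals mark the motifs searched. Those were the receptor palindrome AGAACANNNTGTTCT, the looser form GNACANNNTGTNC that contains it, the E-box CACGTG bound by clock activators, and CCAAT, on both strands over windows of 300 bases that also take in the first 50 bases after the start.
Sgk1, chr10:21993640-21993889, plus strand: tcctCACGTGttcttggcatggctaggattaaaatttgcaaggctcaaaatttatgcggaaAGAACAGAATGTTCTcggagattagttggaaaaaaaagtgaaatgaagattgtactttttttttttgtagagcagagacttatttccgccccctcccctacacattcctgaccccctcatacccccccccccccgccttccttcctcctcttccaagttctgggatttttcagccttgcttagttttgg
Per1, chr11:69098699-69098948, plus strand: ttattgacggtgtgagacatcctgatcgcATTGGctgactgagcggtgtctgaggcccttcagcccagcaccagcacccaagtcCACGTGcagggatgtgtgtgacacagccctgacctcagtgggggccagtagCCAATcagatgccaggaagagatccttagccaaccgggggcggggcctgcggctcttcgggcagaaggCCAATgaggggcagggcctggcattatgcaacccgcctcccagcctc
Fkbp5, chr17:28486150-28486399, minus strand: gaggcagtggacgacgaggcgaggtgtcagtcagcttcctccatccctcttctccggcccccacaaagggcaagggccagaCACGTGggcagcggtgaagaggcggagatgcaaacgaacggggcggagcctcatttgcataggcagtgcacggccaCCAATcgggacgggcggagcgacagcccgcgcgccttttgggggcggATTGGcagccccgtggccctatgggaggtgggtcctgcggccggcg
Hsd11b1, chr1:193242361-193242610, minus strand: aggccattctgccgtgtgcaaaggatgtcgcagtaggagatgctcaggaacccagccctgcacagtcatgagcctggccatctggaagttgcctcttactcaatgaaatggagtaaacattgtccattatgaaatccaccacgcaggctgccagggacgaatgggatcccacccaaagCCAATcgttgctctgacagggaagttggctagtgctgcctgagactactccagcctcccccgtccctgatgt
The full palindrome stood in 1 of the 6 annotated windows of Sgk1, as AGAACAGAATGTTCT starting 189 bases before the start. Over all 32851 windows it was in 3, or 0.00913%, and the looser form was in 156, or 0.475%. No window of Per1, Fkbp5, Hsd11b1 or Tsc22d3 held either form, which says only that these letters are not in these windows. An E-box stood 246 bases before that Sgk1 start, 166 before the Per1 start and 169 before the Fkbp5 start, against 7.15% of all windows with at least 1. CCAAT began 72 bases before the Hsd11b1 start and occurred 3 times in the Per1 window shown and 2 times in that of Fkbp5, and 37.4% of all windows held it. The 3 windows of Tsc22d3 held none of the motifs. Nr3c1 and Zbtb16 were not searched here. These matches are a description of sequence, and binding was not measured.

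Levels below are log2 values relative to the 75th percentile of the same array, so that 0 is the signal of that percentile, and they are compared between samples for 1 probe, never between genes. Differences are log2 differences between group means with the standard error (SE) of a limma fit over all 22 arrays, and adjusted p-values are Benjamini-Hochberg values over all genes tested in that comparison. A difference was called at an adjusted p under 0.05. Whether arrays of the vectors overlapped is given as a description only. The share of all genes without overlap was not computed, and with 2 arrays a group such separation is weak evidence. On each array 48.4% to 71.0% of 59305 non-control spots were well above background, and the 75th percentile was 729 on the second array of day 14 lacZ and 1285 to 2124 on the rest. The median absolute difference between the 2 arrays of a group was 0.0583 to 0.264, the highest in day 14 lacZ. The lacZ and MGT arrays of days 3 and 5 shared a slide, as did those of days 7 and 10, whereas day 14 MGT lay on a slide of its own and day 14 lacZ shared its slide with day 0. The fibroblast markers Col1a1 and Pdgfra were well above background on all 22 arrays.

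Hsd11b1, the enzyme gene, had the widest range of the 7. Its probe covers bases from position 979 of transcript NM_008288, at chr1:195048169-195048228 on the minus strand of mm9, and was spotted 10 times per array, with an SD over spots of at most 0.064. The 2 day 0 arrays read -1.63 and -1.68. The lacZ arrays read 4.34 and 4.37 at day 3, 3.88 and 3.89 at day 5 and 4.87 and 4.98 at day 7. They read 4.59 and 4.48 at day 10 and, at day 14, 5.01 and 5.29. All 20 arrays of cultured cells lay far above both day 0 arrays, and the lowest cultured group was day 5 MGT at 3.19 ± 0.03 (SD, n = 2). Relative to day 0, lacZ cultures stood 64.2-fold higher at day 3 and 111.6-fold higher at day 14 (log2 difference 6.80), and MGT cultures 142.6-fold higher at day 14 (7.16). Day 0 and day 14 lacZ were on the same slide, so the second of these values does not cross slides. Of all genes 57.8%, 68.9% and 70.5% were called in these 3 comparisons, and nothing is read from that here because the choice used the same contrast. In the authors' deposited table, which was made from the same arrays and whose scale is not stated, Hsd11b1 stood at 578.2 and 606.8 at day 0 and at 31624 and 32108 in day 3 lacZ.

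The MGT arrays read 3.85 and 3.81 for Hsd11b1 at day 3, 3.17 and 3.21 at day 5, 4.20 and 4.49 at day 7, 4.74 and 4.76 at day 10, and 5.50 and 5.51 at day 14. On each of the 5 days the 2 MGT arrays did not overlap the 2 lacZ arrays, but they lay below them at days 3, 5 and 7 and above them at days 10 and 14. Hsd11b1 was lower with MGT by 0.53 at day 3 (difference -0.53, SE 0.10, limma adjusted p = 0.00108), with a difference of -0.69 at day 5 (adjusted p = 8.24e-05) and -0.58 at day 7 (adjusted p = 0.000368). At day 10 the difference was 0.22 (adjusted p = 0.0989), and at day 14 MGT was higher by 0.35 (SE 0.10, adjusted p = 0.00923). The difference at day 14 was 0.88 above that at day 3 (SE 0.14, adjusted p = 0.000505), a change whose adjusted p lay between 8.51e-06 and 0.0153 over the 19 alternative settings run. The day 14 groups lay on different slides, so slide and vector cannot be told apart in this change or in the day 14 difference. No setting removes that. The day 14 call alone was less steady. Without the first day 14 lacZ array the difference was 0.21 (limma adjusted p = 0.087), and with only the 4 arrays of that day in the fit the adjusted p was 0.172, within a range of 2.37e-05 to 0.172 over its settings. It was larger with quantile normalization (0.62) and in the deposited table (0.64). The order of the groups from the top was day 14 MGT, day 14 lacZ and day 7 lacZ. The gap between the last 2 of these (0.23) was smaller than the sum of their SDs, as was that between day 3 lacZ and day 7 MGT (0.01).

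**Figure D1:**
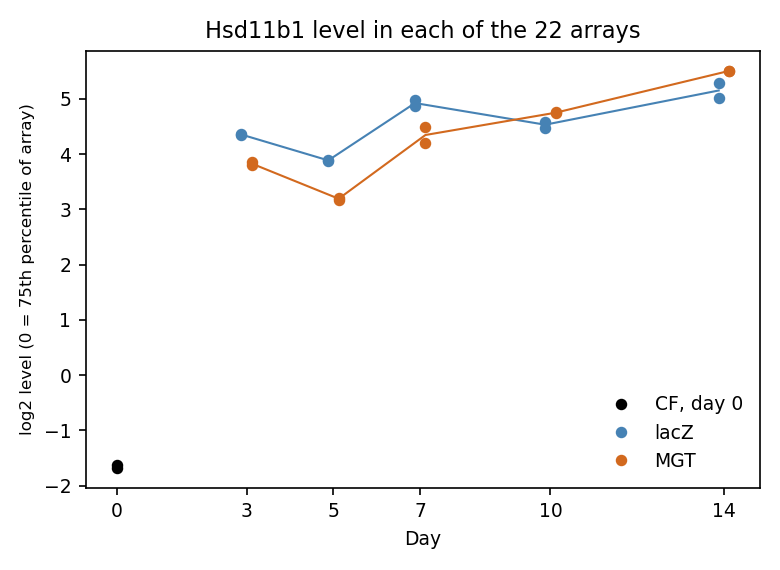
Level of Hsd11b1 on each of the 22 arrays (vertical axis, log2 relative to the array's 75th percentile) by day (horizontal axis), with points for arrays and lines through group means of lacZ and MGT. Both day 0 arrays lie near -1.65 and the cultured arrays between 3.17 and 5.51, with MGT below lacZ up to day 7 and above it from day 10.

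Cell type markers moved over the same days. In lacZ cultures 9 of 10 macrophage markers were higher and 6 of 8 endothelial markers lower at day 14 than at day 0 (limma, called at the same threshold). In that comparison 68.9% of all genes were called in either direction, and 51.5% of those calls were higher. The summed level of the macrophage markers, in multiples of the 75th percentile signal, was 47.1 to 50.6 at day 0, 55.6 to 56.0 in day 3 lacZ, 48.6 to 48.7 in day 5 lacZ, and 234 to 343 in day 14 lacZ. The mean of Hsd11b1 on the day 3 lacZ arrays was 64.2-fold that of day 0. The part of these cells in the levels of Hsd11b1 was not tested. The endothelial sum was 29.9 to 31.9 at day 0, 33.9 to 34.0 in day 3 lacZ and 10.4 to 16.6 in day 14 lacZ. Of the adipocyte markers, a cell type in which Hsd11b1 is abundant, Adipoq was well above background on 0 arrays and Plin1 on 1, and the sum over the 6 measured of 10 ranged from 16.1 to 48.6. Of these 6, 3 were called higher and 2 lower in day 14 lacZ than at day 0. At day 14, 4 were higher and 1 lower with MGT than with lacZ, where 47.6% of all genes were called. The part of adipocytes in the levels of Hsd11b1 was not tested. The fibroblast sum over 12 markers was 961 to 989 at day 0, 1165 to 1191 in day 3 lacZ and 1302 to 1961 in day 14 lacZ. Of these 12, 6 were called higher and 4 lower in day 14 lacZ than at day 0. In such bulk RNA, a change in the number of cells of a type and a change in RNA per cell cannot be told apart.

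Between the vectors, 9 of 9 cardiomyocyte markers were higher with MGT on average and 10 of 12 fibroblast markers lower, with 2 fibroblast markers higher. In that averaged comparison 23.3% of all genes were called higher and 40.6% lower. The cardiomyocyte sum was 13.3 to 59.5 over the lacZ arrays and 342 to 885 over the MGT arrays, and the fibroblast sum in day 14 MGT was 677 to 699. At day 14, 3 of 10 macrophage markers were lower with MGT, where 47.6% of all genes were called in either direction, with a sum of 178 to 191. Averaged over the days 7 of 8 endothelial markers were lower, where 40.6% of all genes were. The part of these marker changes in the differences reported for the glucocorticoid genes was not tested. Averaged over days 3 to 14, 6 of the 7 genes were called, 2 higher and 4 lower with MGT. That count is read against a background of 63.9% of 18058 genes called in this comparison, so 6 of 7 is near what the whole array shows, as are 2 against 23.3% called higher and 4 against 40.6% called lower. In the change from day 3 to day 14, 3 of 7 were called, all upward, against a background of 27.6%. Of all 11537 calls 36.4% were higher, against 49.3% of 11090 when the 75th percentile was taken over probes well above background on all arrays. The members' counts in the order of the 5 days were 5, 6, 5, 4 and 4, against 30.4%, 38.1%, 37.3%, 39.3% and 47.6% of all genes called. With only 7 genes, no excess over that background is read from these counts. Since the members were chosen with results known, no test of these counts is given.

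Nr3c1, the receptor gene, was higher with MGT than with lacZ, while its course from day 0 differed between its 2 probes. The lacZ mean of the brighter probe differed from day 0 by -0.46 at day 3 and -0.08 at day 14, where the mean of both probes gave -0.25 and -0.32 and the deposited table -0.19 and -0.35. With normexp the day 14 value of the brighter probe was 0.04. With the brighter probe, from position 4827 of NM_008173, the day 0 arrays read 4.49 and 4.46. The lacZ arrays read 3.98 and 4.04 at day 3, 4.06 and 4.03 at day 5, 4.56 and 4.63 at day 7, 4.43 and 4.36 at day 10, and 4.36 and 4.43 at day 14. The MGT arrays read 4.17 and 4.20, 4.59 and 4.40, 5.04 and 4.80, 5.01 and 4.90, and 4.71 and 4.58 on the same days. The MGT arrays lay above the lacZ arrays of their day on all 5 days. Averaged over days, Nr3c1 was 0.35 higher with MGT (SE 0.04, limma adjusted p = 2.58e-06), and the call held under all 34 alternatives, with differences from 0.31 to 0.46. By day it was called at days 5 (0.45, adjusted p = 0.000864), 7 (0.32, adjusted p = 0.00855), 10 (0.56, adjusted p = 0.00015) and 14 (0.25, adjusted p = 0.0272), and not at day 3 (0.17, adjusted p = 0.156), where it was called with the percentile taken over probes well above background (0.24, adjusted p = 0.0409).

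The second Nr3c1 probe, from position 2285 of the same transcript, gave another course over the days. Its mean level was -0.07 at day 0, -0.11 in day 3 lacZ and -0.63 in day 14 lacZ. In a fit with each kept probe on its own it averaged 0.27 higher with MGT (SE 0.07, limma adjusted p = 0.00353). Its difference was -0.05 at day 3 (adjusted p = 0.894) and -0.15 at day 5 (adjusted p = 0.496), and then 0.56 at day 7 (adjusted p = 0.0111), 0.45 at day 10 (adjusted p = 0.0348) and 0.54 at day 14 (adjusted p = 0.0107). The 2 probes thus had the same sign at days 7, 10 and 14 and opposite signs at days 3 and 5. The day 5 call was lost with the mean of both probes (0.15, limma adjusted p = 0.182) and in the deposited table (0.15, adjusted p = 0.226), over a range of 0.000184 to 0.226. The day 14 call was lost with normexp background correction (0.13, limma adjusted p = 0.371), with only the arrays of that day (adjusted p = 0.192), without the first day 14 lacZ array (0.22, adjusted p = 0.0954) and without the first day 14 MGT array (0.19, adjusted p = 0.188). Over all its settings the day 14 value lay between 0.13 and 0.49 and its adjusted p between 0.000508 and 0.371. The day 7 call was lost with normexp (0.31, limma adjusted p = 0.0695), with only that day's arrays (adjusted p = 0.103), without the first day 7 lacZ array (0.29, adjusted p = 0.0594) and without the first day 7 MGT array (0.20, adjusted p = 0.12), over a range of 0.000677 to 0.12.

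**Figure D2:**
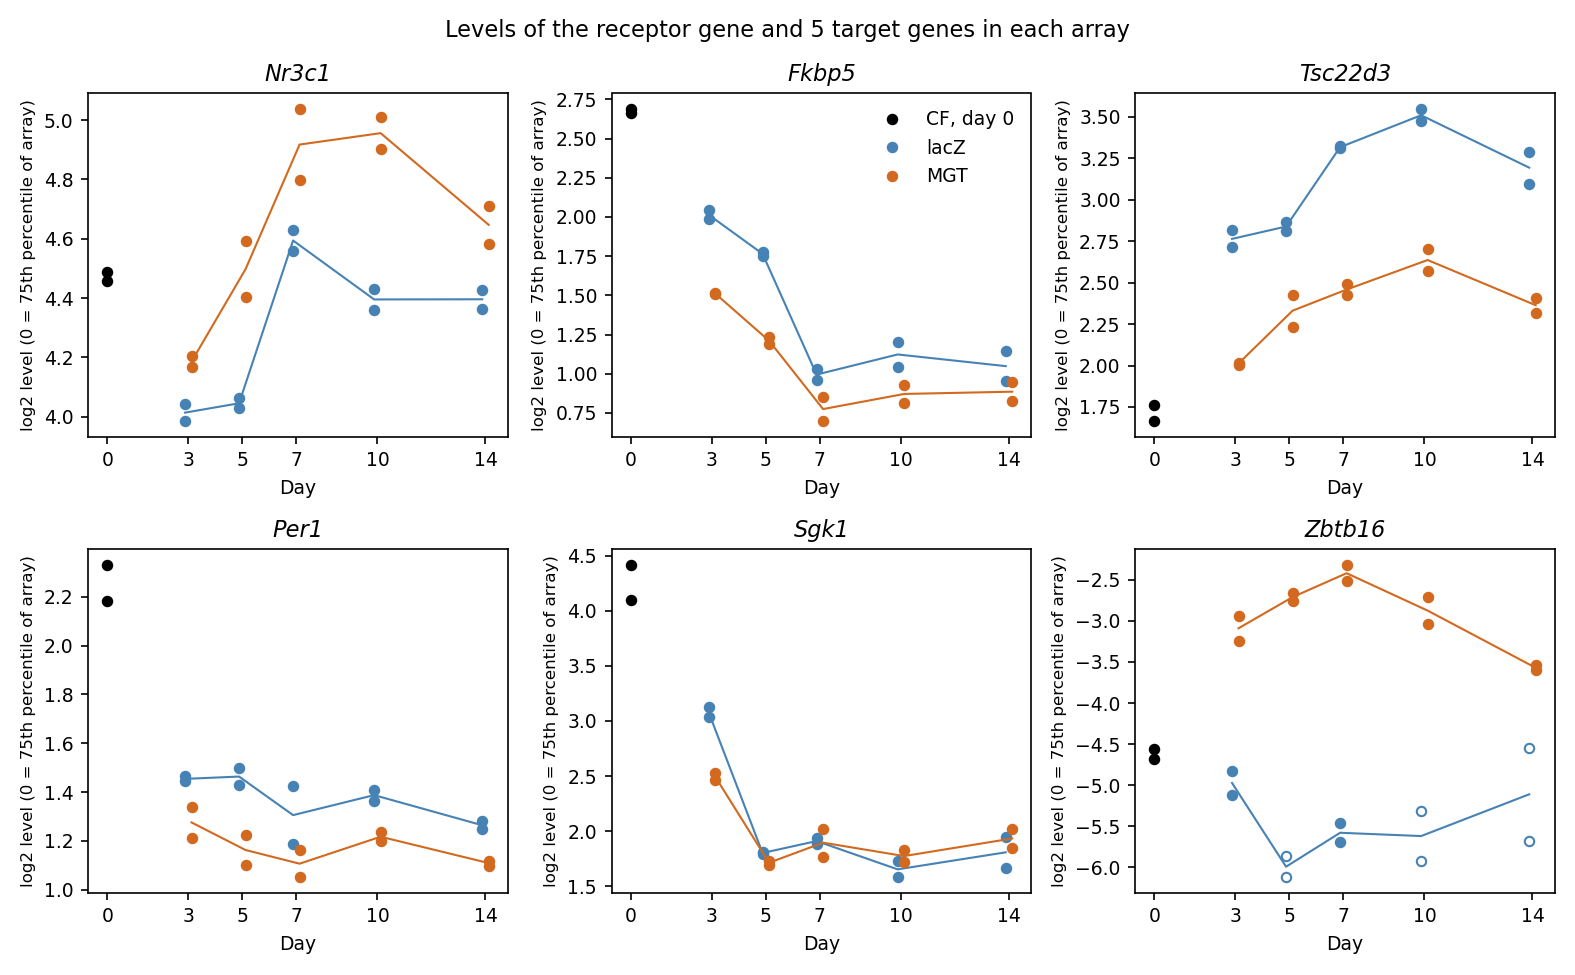
Levels of Nr3c1, Fkbp5, Tsc22d3, Per1, Sgk1 and Zbtb16 on each array (vertical axes, log2 relative to the array's 75th percentile, each panel on its own scale) by day, with lines through group means. Open points are arrays on which the probe was not well above background, which occurred for Zbtb16 in lacZ cultures; Tsc22d3 lies above both day 0 arrays in every cultured group, and Fkbp5, Per1 and Sgk1 below them.

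The 5 target genes did not share a course after day 0. Tsc22d3 stood higher in culture, Fkbp5, Per1 and Sgk1 stood lower, and Zbtb16 differed by vector. Tsc22d3, also called GILZ, encodes a leucine zipper protein that mediates part of the anti-inflammatory action of the hormone, and its probe lies at chrX:137074094-137074153 on the minus strand of mm9. It read 1.66 and 1.76 at day 0. The lacZ arrays read 2.82 and 2.71 at day 3, 2.86 and 2.81 at day 5, 3.31 and 3.32 at day 7, 3.55 and 3.47 at day 10, and 3.29 and 3.10 at day 14. The MGT arrays read 2.01 and 2.02, 2.23 and 2.43, 2.49 and 2.43, 2.70 and 2.57, and 2.41 and 2.32. All cultured arrays were above both day 0 arrays, by 1.05 in the mean of day 3 lacZ, 1.48 in that of day 14 lacZ and 0.65 in that of day 14 MGT.

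Over all 5 days together the highest of the 10 MGT arrays (2.70) lay just below the lowest of the 10 lacZ arrays (2.71) for Tsc22d3. Of the 7 genes only Zbtb16 had the vectors apart in this way too, in the opposite direction. The share of all genes with the vectors apart in this way was not computed, so nothing is read from it. The averaged difference of Tsc22d3 was -0.76 (SE 0.04, limma adjusted p = 6.46e-10), or 1.70-fold lower with MGT. Tsc22d3 was lower on each day, with differences of -0.75, -0.51, -0.86, -0.87 and -0.83 in the order of the days and adjusted p from 1.99e-06 to 0.000282. Every one of these calls held under all alternatives run, where the averaged value ranged from -0.87 to -0.63. The difference did not change detectably between day 3 and day 14 (change -0.08, SE 0.12, limma adjusted p = 0.66).

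Fkbp5 encodes a co-chaperone that binds Hsp90 and lowers the hormone affinity of the receptor, a feedback on the pathway. Its probe lies at chr17:28536060-28536119 on the minus strand of mm9. It read 2.69 and 2.66 at day 0, and in lacZ cultures 1.98 and 2.04 at day 3, 1.75 and 1.78 at day 5, 0.96 and 1.03 at day 7, 1.04 and 1.20 at day 10, and 0.95 and 1.14 at day 14. The MGT arrays read 1.52 and 1.51, 1.19 and 1.23, 0.85 and 0.70, 0.82 and 0.93, and 0.82 and 0.95. Every cultured array lay below both day 0 arrays, by 0.66 in the mean at day 3 lacZ (difference -0.66) and by 1.63 at day 14 lacZ (difference -1.63). From day 7 the gaps between neighbouring groups in the order of levels were within the sums of their SDs.

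The MGT arrays of Fkbp5 lay below the lacZ arrays on all 5 days. The averaged difference was -0.34 (SE 0.04, limma adjusted p = 2.23e-06), with -0.53 within the slide of days 3 and 5 (adjusted p = 5.19e-06) and -0.24 within that of days 7 and 10 (adjusted p = 0.00359). By day the difference was -0.50 (limma adjusted p = 0.000359), -0.55 (adjusted p = 0.000107), -0.22 (adjusted p = 0.0467), -0.25 (adjusted p = 0.0243) and -0.16 (adjusted p = 0.114). Without the first day 14 lacZ array the day 14 difference was -0.26 and was called (limma adjusted p = 0.0245), in a range of 0.0245 to 0.696. The day 7 call was lost in 8 of its 15 alternatives and the day 10 call in 5 of 15. Leaving out the first or second day 7 lacZ array gave -0.26 and -0.19 (limma adjusted p = 0.0768 and 0.203), and leaving out the second day 7 MGT array gave -0.14 (adjusted p = 0.309), in a range of 0.0349 to 0.309. The day 10 difference was -0.17 without the second day 10 lacZ array and -0.20 without the first day 10 MGT array (limma adjusted p = 0.171 and 0.159), in a range of 0.0139 to 0.196.

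Per1 encodes a repressor of the circadian clock whose transcription also answers to glucocorticoids, and its probe lies at chr11:68923364-68923423 on the plus strand of mm9. It read 2.18 and 2.33 at day 0. In lacZ cultures it read 1.44 and 1.46, 1.50 and 1.43, 1.42 and 1.19, 1.41 and 1.36, and 1.25 and 1.28 at days 3, 5, 7, 10 and 14, and in MGT cultures 1.21 and 1.34, 1.10 and 1.23, 1.16 and 1.05, 1.20 and 1.23, and 1.10 and 1.12. All cultured arrays were below both day 0 arrays, by 0.80 at day 3 lacZ (difference -0.80) and 0.99 at day 14 lacZ (difference -0.99). The MGT arrays lay below the lacZ arrays on each of the 5 days, and the averaged difference was -0.20 (SE 0.04, limma adjusted p = 0.000315). Of single days, day 5 was called (-0.30, limma adjusted p = 0.0106), a call lost in 4 of 15 alternatives, among them without the first day 5 lacZ array (-0.27, adjusted p = 0.0749) and without the first day 5 MGT array (-0.24, adjusted p = 0.101), in a range of 0.0067 to 0.101. The other days gave differences from -0.20 to -0.15 that missed the threshold, with adjusted p of 0.0754 to 0.14. Leaving out the second day 7 lacZ array brought day 7 past it (-0.32, limma adjusted p = 0.0144).

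Sgk1 encodes a serine/threonine kinase that regulates ion channels and transporters, and it is the gene whose printed window holds the receptor palindrome. Its probe lies at chr10:21719507-21719566 on the plus strand of mm9. It read 4.41 and 4.10 at day 0, then 3.03 and 3.13 in day 3 lacZ and 2.53 and 2.47 in day 3 MGT. From day 5 on the lacZ arrays read 1.79 and 1.81, 1.94 and 1.88, 1.58 and 1.73, and 1.67 and 1.95, and the MGT arrays 1.70 and 1.73, 1.77 and 2.02, 1.72 and 1.83, and 1.85 and 2.02. The level thus stood highest at day 0, lower at day 3 and lower still from day 5, where neighbouring groups differed by less than the sums of their SDs. The day 14 lacZ mean was 5.46-fold below day 0, on the same slide. MGT was lower at day 3 (-0.58, SE 0.12, limma adjusted p = 0.00216). The differences of the later days were -0.09, -0.01, 0.12 and 0.13, with adjusted p from 0.415 to 0.944, and arrays of the vectors overlapped at days 7, 10 and 14. The average over days was -0.09 (SE 0.05, limma adjusted p = 0.166), with -0.34 within the slide of days 3 and 5 (adjusted p = 0.00519) and 0.05 within that of days 7 and 10 (adjusted p = 0.639). The change from day 3 to day 14 was 0.71 (SE 0.17, limma adjusted p = 0.00748). It was lost with normexp (0.55, adjusted p = 0.0653) and on the deposited values (0.50, adjusted p = 0.139), in a range of 0.00313 to 0.139.

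Zbtb16, also called PLZF, encodes a zinc finger transcription factor that glucocorticoids induce strongly in many cell types, and its probe lies at chr9:48462419-48462478 on the minus strand of mm9. The probe was well above background on 16 of 22 arrays. It read -4.68 and -4.56 at day 0. The lacZ arrays read -4.83 and -5.12 at day 3 and -5.46 and -5.70 at day 7. The lacZ arrays of the other days were not well above background and read -6.12 and -5.86 at day 5, -5.93 and -5.31 at day 10, and -5.68 and -4.55 at day 14. The MGT arrays read -3.24 and -2.94, -2.66 and -2.76, -2.32 and -2.52, -3.03 and -2.72, and -3.60 and -3.54, all above background and above every day 0 and lacZ array.

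Zbtb16 was higher with MGT on all 5 days. At day 3 it was 1.88 higher (SE 0.29, limma adjusted p = 0.00028), or 3.69-fold. At day 7 it was 3.16 higher (SE 0.29, limma adjusted p = 1.63e-06), or 8.93-fold. The lacZ readings of both days (-4.83 and -5.12, -5.46 and -5.70) lay within the range of lacZ arrays not above background (-6.12 to -4.55). These folds thus rest on lacZ values near background. The day 3 difference was 1.10 with normexp background correction and 1.45 in the deposited table, and the day 7 difference 1.84 and 2.42. Where lacZ was not above background the fold is a bound that holds for the main scaling only. The MGT mean was set against a raised lacZ level. On each lacZ array this was the higher of the probe's own level and the lowest level of any probe well above background. So bounded, Zbtb16 was at least 3.55-fold higher for day 5, 3.34-fold for day 10 and 2.21-fold for day 14. The limma tests used the fitted differences instead, with lacZ readings not above background (adjusted p = 1.19e-06, 6.19e-06 and 0.00081 in that order). Under the alternatives those fitted log2 differences fell as low as 1.50, 1.31 and 0.26, below the bounds (log2 1.83, 1.74 and 1.14). The fitted average was 2.52 (SE 0.13, limma adjusted p = 1.36e-09), with 4 of the 10 lacZ arrays above background. That average was 1.20 under normexp and 1.81 from the deposited table. The day 14 call was lost under normexp (0.26, limma adjusted p = 0.274) and with only that day's arrays (adjusted p = 0.102), in a range of 8.33e-06 to 0.274. Without the first day 14 lacZ array the fitted day 14 difference was 0.97 in place of 1.54.

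**Figure D3:**
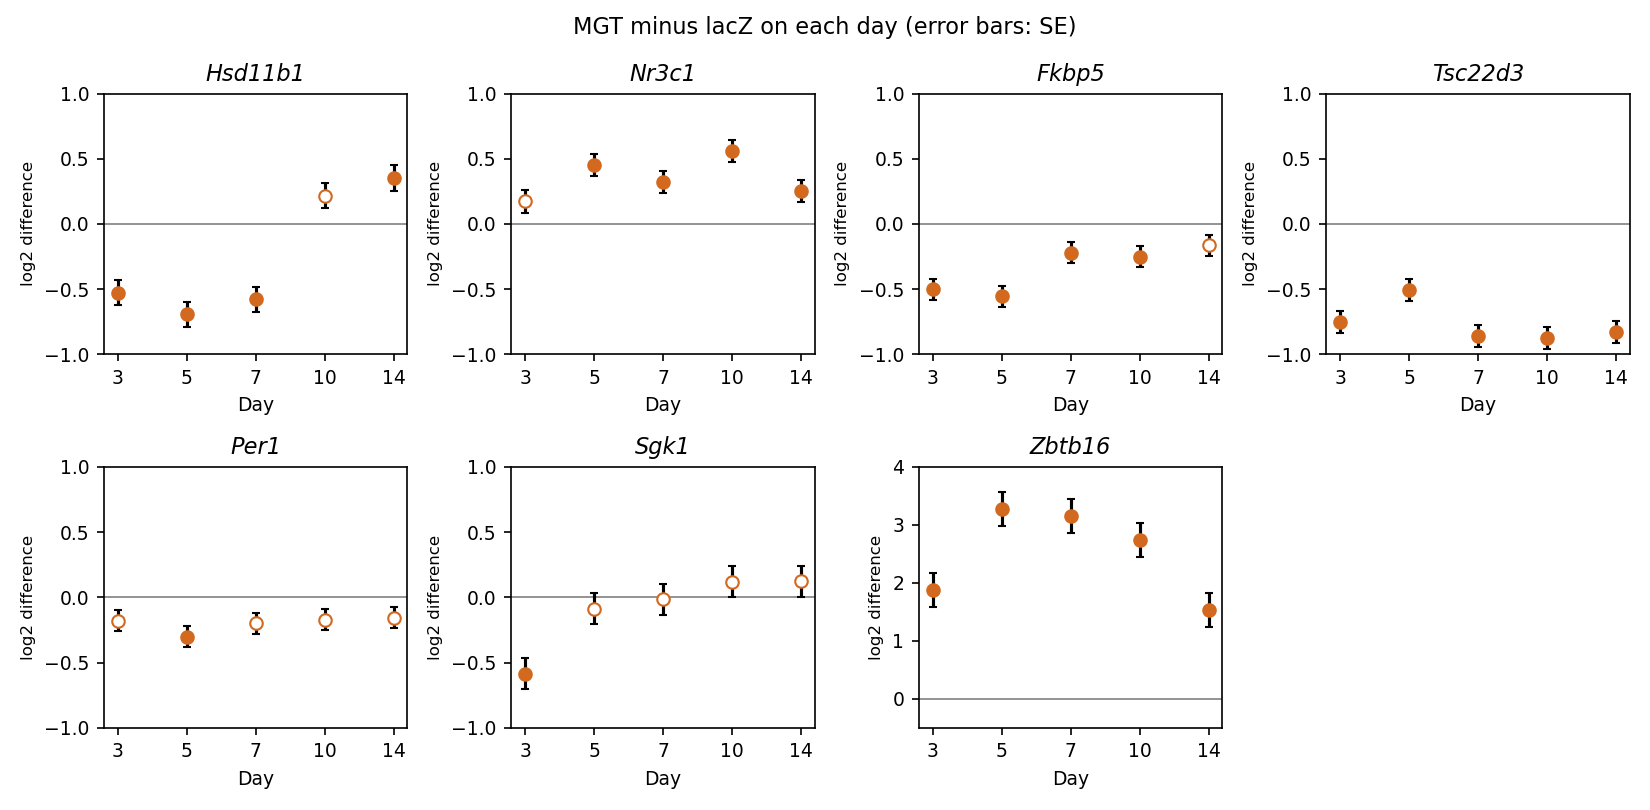
Difference between MGT and lacZ (vertical axes, log2, with the SE of the fit as error bars) by day for each of the 7 genes, with filled points for an adjusted p under 0.05. Zbtb16 has a wider axis than the rest, and its points at days 5, 10 and 14 rest on lacZ arrays not well above background; Tsc22d3 lies below 0 on all days, Nr3c1 and Zbtb16 above it, and Hsd11b1 crosses 0 between days 7 and 10.

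The members were also set against each other over the group means, as a description. Over 11 groups Pearson's r between Hsd11b1 and Per1 was -0.89, and over the 10 groups without day 0 it was -0.18. For Fkbp5 and Per1 it was 0.89 with day 0 and 0.79 without, and for Nr3c1 and Fkbp5 -0.60 with and -0.92 without. The groups share days, slides and a scaling value per array, so these points are not independent. Among 5953 genes with an SD of at least 0.5 over the group means, those whose course was most like that of Hsd11b1 were Chchd10 (r = 0.98), Slc16a4 (0.98), Atp13a5 (0.98), Arhgef6 (0.98) and Fbln5 (0.97). These r values, and those of the other members' nearest genes, take in day 0, where Hsd11b1 lay far below all cultured groups. They were not computed without day 0, so likeness within culture was not tested. Fbln5, an elastic fibre protein, stood at 2.38 at day 0 and 4.81 in day 3 lacZ, and Slc16a4 and Atp13a5 were above background on 20 arrays. The nearest to Nr3c1 were Pam (0.90) and Adamts17 (0.89), to Fkbp5 the replication helicase subunit gene Mcm2 (0.99) and Ddx39a (0.99), to Tsc22d3 Trim2 (0.98) and Atp1b1 (0.97), to Per1 Ppp2r1b (0.99) and Phox2a (0.99), to Sgk1 Cldn12 (0.98) and Setdb2 (0.98), and to Zbtb16 Ramp3 (0.98) and Abca4 (0.98).

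The rest of the pathway was examined in 5 lists of other genes. For the handling of the hormone, 9 of 10 genes were measured, and Hsd11b2, the opposing enzyme, was not well above background on both arrays of any group. With MGT 1 of the 9 was higher and 3 lower on average, where 63.9% of all genes were called, with a list median of 0.09 against -0.09 over all genes, a sign that turned under normexp (-0.09). H6pd, which supplies the cofactor of the Hsd11b1 enzyme, was lower (-0.36, SE 0.04, limma adjusted p = 1.70e-06). Akr1c14, a steroid dehydrogenase, was lower by far more (-1.53, SE 0.08, limma adjusted p = 2.44e-09). The efflux pump gene Abcb1b was lower (-0.30) and Srd5a1, the steroid reductase, higher (0.21). Between day 0 and day 14 lacZ the list had 1 higher and 4 lower, among them Srd5a1 (-1.19) and Abcb1b (-0.86), where 68.9% of all genes were called. The gene higher was Akr1c14 (2.81), which was above background on 1 of the 2 day 0 arrays and whose difference was 1.82 to 2.83 over the 5 scalings.

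Receptor chaperones and coregulators were all measured, 14 of 14. Averaged over days 2 were higher and 8 lower with MGT, where 63.9% of all genes were called, with a median of -0.13 against -0.09 over all genes, and the count lower was 6 to 8 under the 4 other scalings. The corepressor gene Nrip1 (-0.35) and the chaperone gene Hspa8 (-0.33) were lower, and so was Hsp90ab1 (-0.33), whose call was lost under 2 of the scalings. From day 0 to day 3 lacZ 1 rose, the coactivator gene Ncoa1 (0.61), and 6 fell. There 57.8% of all genes were called, and 49.9% of those calls were higher. From day 0 to day 14 lacZ 1 rose and 7 fell, where 68.9% were called and 51.5% of those calls were higher. The co-chaperone genes that pair with Hsp90 in loading the receptor fell most: Stip1 was 1.52 lower at day 14 (difference -1.52, SE 0.06, limma adjusted p = 6.26e-11) and Fkbp4 1.47 lower (difference -1.47, SE 0.06, adjusted p = 1.39e-10). Hspa8 was the gene that rose at day 14 (0.73), with the opposite sign in the lowest of the scalings (-0.13).

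Other genes known to be induced by the receptor went both ways, like the 5 described above. Of 24 measured of 25, without Pck1, 10 were higher and 11 lower with MGT on average, where 63.9% of all genes were called, with a median of 0.00 against -0.09. The decoy receptor gene Il1r2 was lower (-1.99, SE 0.12, limma adjusted p = 5.61e-09), above background on 5 of 10 MGT and 8 of 10 lacZ arrays. Sult1a1, a sulfotransferase (1.79, SE 0.07, adjusted p = 3.80e-11), and Pdk4, a kinase that restrains pyruvate oxidation (1.68, SE 0.08, adjusted p = 2.78e-10), were higher. Rasd1, a small GTPase, is counted among the 10 higher, but was above background on 7 MGT and 2 lacZ arrays and on 0 day 0 arrays. No lacZ group had it above background on both arrays, so it passed the filter on dim probes only through MGT groups. Its fitted difference of 1.98 rests mostly on lacZ readings not above background, and no test is read from it. Between day 0 and day 3 lacZ 7 rose and 9 fell, where 57.8% of all genes were called, and between day 0 and day 14 lacZ 12 rose and 8 fell, where 68.9% were. Errfi1, an inhibitor of epidermal growth factor receptors, was lower at day 14 (-3.78), as were Angptl4, an inhibitor of lipoprotein lipase (-3.67), and Nfkbia, the inhibitor of NF-kB (-2.75). Ddit4, an inhibitor of mTOR signalling, was 2.28 higher at day 3.

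Of the genes known to be repressed by the receptor, all 12 were measured. With MGT 0 were higher and 8 lower on average, where 23.3% of all genes were called higher and 40.6% lower, with a median of -0.53 against -0.09 over all genes and a count lower of 7 to 10 under the 4 other scalings. The stromelysin gene Mmp3 was lower (-2.83, SE 0.13, limma adjusted p = 2.50e-10), as were Il6 (-1.32, SE 0.06, adjusted p = 2.12e-10), Vcam1 (-1.05) and Icam1 (-0.75). Between day 0 and day 3 lacZ 0 rose and 8 fell. There 57.8% of all genes were called in either direction, and 49.9% of those calls were higher. Between day 0 and day 14 lacZ 0 rose and 10 fell, with a median of -1.38 against 0.06. There 68.9% of all genes were called in either direction, and 51.5% of those calls were higher. Under normexp and under the deposited table, however, 1 was called higher at day 14. Il1b fell most (-6.80 at day 3, SE 0.33, limma adjusted p = 2.26e-09; -6.29 at day 14), followed at day 14 by the collagenase gene Mmp13 (-5.88, above background on 1 of the 2 day 14 arrays) and the prostaglandin synthase gene Ptgs2 (-3.38), and at day 3 by Mmp13 (-3.42) and Tnf (-3.22). These cytokine and protease genes are also controlled by pathways other than the receptor.

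Clock genes were read beside Per1. Of 13 measured, 3 were higher and 7 lower with MGT on average, where 63.9% of all genes were called, a split that was 4 and 5 when the 75th percentile was taken over probes well above background. The transcriptional repressor gene Bhlhe40 (-0.53), the clock activator gene Arntl (-0.48), Per2 (-0.40) and Ciart (-0.39) were lower. From day 0 to day 3 lacZ 7 rose and 3 fell, where 57.8% of all genes were called, with Ciart (1.00), Bhlhe40 (0.84) and the clock output gene Dbp (0.79) rising most, while Per1 stood 0.80 lower (difference -0.80). In day 14 lacZ 5 were higher and 5 lower than at day 0, where 68.9% of all genes were called, with Dbp 1.94 and Bhlhe41 1.79 higher and Cry1 1.29 lower (difference -1.29). The sources used here do not give the hour at which cells were taken.

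**Figure D4:**
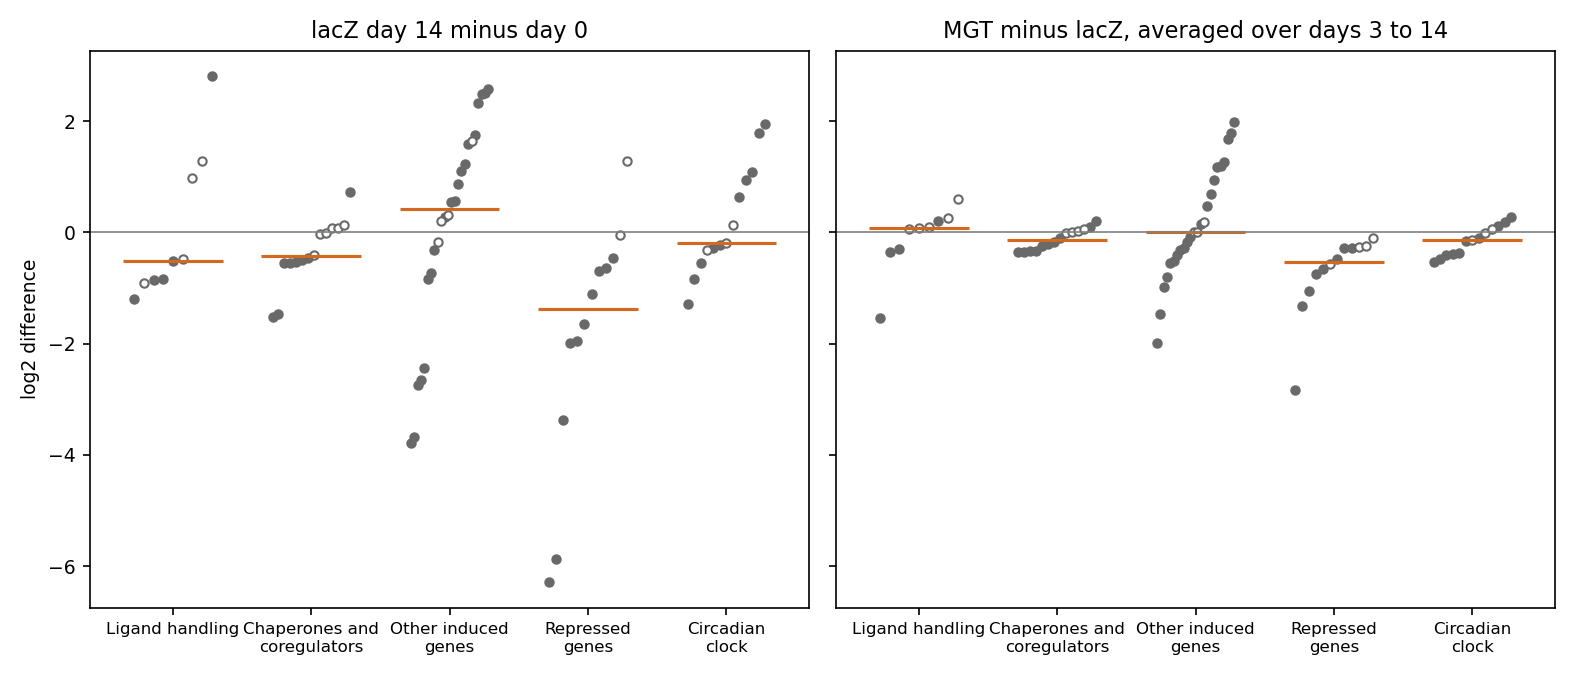
Differences of single genes (points, log2) in the 5 lists, for lacZ day 14 minus day 0 on the left and MGT minus lacZ averaged over days 3 to 14 on the right; filled points passed an adjusted p of 0.05 and bars are list medians. The genes known to be repressed by the receptor have the lowest medians, -1.38 and -0.53, and the other induced genes spread to both sides of 0.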

How the data were processed

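RNA of 22 samples was read as 1-colour Cy3 arrays. Per the file headers, Agilent Feature Extraction 10.7.3.1 gave the deposited intensity of each spot after background subtraction and detrending, with the mean signal and local background beside it; probe positions are on mm9. The authors also deposited a table of 1 intensity per gene name, made with limma per the submitters' processing notes, whose scale and centring are not stated. It served as an alternative.

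The members and lists were chosen with earlier results of these data known. Main values were log2 intensity minus the array's 75th percentile, without control spots and outlier flags, averaged over spots of a probe. A probe was kept if some group had it well above background on both arrays, which 38809 of 55681 probes met. Of all probes 30203 had a symbol, 26162 through accession. The probe with the highest mean stood for its gene, giving 18059 genes, with all 7 members among them. Groups were fitted with limma 3.58.1 in R 4.3.3 (11 group means, 11 residual degrees of freedom), tested on simulated data, with Benjamini-Hochberg adjustment. Named genes were the 7, the 5 or 2 nearest in course, and those of each list with the largest called differences. Alternatives changed scaling, background correction (normexp, offset 50), filter, probe choice, fit, slide and arrays. Array number limits the precision. Replicate numbers did not pair arrays: correlations of same-day deviations were -0.03 to 0.09. One gene of the lists is counted but its own values are not reported here.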

Additional observations from a re-analysis of the deposited data

Results flagged for a closer look

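The difference between MGT and lacZ was not the same at day 14 as at day 3 for 3 of the 7 genes, by the test of that change itself in limma. It was 0.88 higher at day 14 for Hsd11b1 (adjusted p = 0.000505), with the sign turning from lower to higher with MGT. For Sgk1 it was 0.71 higher (adjusted p = 0.00748), and for Fkbp5 0.338 higher (adjusted p = 0.0426). The background of this test was 27.6% of 18058 genes. The Fkbp5 call was lost in 8 of 19 alternatives, among them leaving out either day 3 lacZ array (0.37 and 0.31, limma adjusted p = 0.0725 and 0.129), either day 3 MGT array (0.34 and 0.33, adjusted p = 0.0908 and 0.103), the first day 14 lacZ array (0.24, adjusted p = 0.101) or the second day 14 MGT array (0.28, adjusted p = 0.153), over a range of 0.00976 to 0.153. The day 14 groups lay on different slides, so at that day slide and vector cannot be told apart.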

How the results depend on the processing

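Of 889 values of the 7 genes under alternatives, 825 kept their direction and side of the threshold, 41 lost a call, 10 gained one and 13 changed sign, none of these called in the main fit. The count of the 7 genes called at day 7 was 3 with only the arrays compared and 3 to 5 leaving out each array in turn. At day 14 it was 2 with normexp and 1 with only the arrays compared, and 3 to 4 leaving out arrays. Leaving out arrays gave 5 at day 3, 5 to 6 at day 5, 3 to 4 at day 10, 6 for the average and 2 to 3 for the change. Genes called were 8710 to 9134 for lacZ day 3 minus day 0, 11312 to 12871 at day 14 and 11520 to 11735 for MGT at day 14. With only the arrays compared, 3291 of all genes were called at day 10, 2699 at day 14 and 3294 for the change, where the main counts were 7105, 8590 and 4977. The cause was not tested.

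Sign changes were, for Sgk1, 0.015 at day 5 with the deposited table; 0.031 at day 7 with quantile normalization, 0.056 with the percentile over probes above background, and 0.017 and 0.113 without the first lacZ or first MGT array (range -0.142 to 0.113 leaving out arrays); -0.00074 at day 14 with normexp and -0.013 without the first lacZ array (range -0.013 to 0.263); and 0.053 within the slide of days 7 and 10. For the change they were -0.031 for Nr3c1 with normexp, 7.9e-05 for Tsc22d3 with the deposited table and 0.019 without the first day 14 lacZ array (range -0.176 to 0.019), -0.04 for Per1 without the first day 3 MGT array (range -0.04 to 0.087), and 0.223 for Zbtb16 without the second day 14 lacZ array (range -0.909 to 0.223). Hsd11b1 at day 10 was called higher with quantile normalization (0.32), the percentile over probes above background (0.29) and the deposited table (0.29). The Zbtb16 change was called with normexp (-0.85) and without the first day 14 lacZ array (-0.91), and the Nr3c1 change with the deposited table (0.43).

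Normexp moved the median of all genes at day 14 from -0.09 to -0.24, and for lacZ day 14 minus day 0 from 0.06 to 0.22. The share of calls that were higher at day 14 was 38.4% in the main fit, 26.5% with normexp and 52.4% with the percentile over probes above background. With the replicate number as a block, the count of the 7 genes called was 5 at day 3 and 6 at day 5, and the block ended no call of theirs. Zbtb16 has no value with the filter for probes well above background on every array. Slide as a random block was not fitted, since the arrays of each group shared a slide. Only 2 arrays a group limit what single days can show.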
